A study of Drosophila melanogaster and Drosophila simulans and Drosophila yakuba with 4 samples.

Results

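The genes described here lie outside the 6 major chromosome arms of Drosophila melanogaster. They were chosen by position alone: a gene was kept when the sequence named in its locus was none of 2L, 2R, 3L, 3R, X and 4, and genes whose symbols mark ribosomal proteins, NADH dehydrogenase subunits of the nucleus, snoRNAs or snRNAs were left out. Of the 15492 genes listed, 289 lay off the arms, 3 of them (RpL15, ND-AGGG and snoRNA:Me18S-C419) were left out by symbol, and 286 remained. They fell on 8 sequences: 6 blocks of assembled heterochromatin named 2LHet, 2RHet, 3LHet, 3RHet, XHet and YHet, the collection of unplaced contigs U, and the mitochondrial genome. The 37 mitochondrial genes meet the rule on position but are neither heterochromatic nor unplaced, so they are described apart and counts are also given without them.

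The RNA came from whole white prepupae, animals at the start of pupariation, of 4 Drosophila species (melanogaster, yakuba, simulans and pseudoobscura), with 1 library for each. The values below are from the library whose title names D. melanogaster. Its organism field names D. yakuba, and the reverse holds for the library titled D. yakuba, but the gene table uses the sequence names and gene identifiers of D. melanogaster. The sources used here do not state the strain, sex or number of animals. With 1 library there is no spread between animals to set a difference against, so no test was made and every value is a description of this library. Levels are FPKM, in which the reads on a gene are scaled by the length of its transcript and by the depth of the library, so that genes of different length can be compared. The bounds in parentheses are those that Cufflinks gave each value, and they cover the counting of reads and their assignment to transcripts, not differences between animals. The reads behind a value were solved from its bounds and summed to 12038300 over the library. The 286 genes held 109360 of them, and the 10 genes with the most reads held 58.9% of those.

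The library carried the RNA of its stage. All 13 stage markers passed FPKM 1 and had a median of 2840, among them the fat body genes Fbp2 at 14160 and Lsp2 at 6146. Genes of adult females were nearly without reads: of 12 on that list, Yp3, which encodes a yolk protein, reached FPKM 1, at 2.22. Of markers of other tissues, the blood cell genes Hml and He stood at 0.341 and 42.6, the neuronal gene Syt1 at 24.0 and the midgut gene Jon65Aiv at 2508.

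Heterochromatin is the part of the genome that stays condensed through the cell cycle. It surrounds the centromeres, makes up the whole Y chromosome, and consists largely of satellite repeats and transposable elements, which are packaged with methylated histone H3 and HP1 proteins. Genes within it are few, and many have introns filled with repeats. Some of them, such as light and rolled, need this surrounding for normal activity and lose expression when moved to euchromatin, which is the opposite of what happens to a euchromatic gene placed beside heterochromatin. The Y chromosome carries few single-copy genes, most of them active only in the male germline and several of them required for sperm to move. Because reads from repeats map to many places, such genes are also hard to place and to count.

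As a whole these genes were low. Of the 286, 104 (36.4%) stood at FPKM 1 or more, against 74.5% of all genes listed in the library and 75.3% of the 15203 genes on the arms. Their median FPKM was 0.178 (order-statistic interval 0 to 0.524), beside 6.90 for all genes and 7.10 for the arms. In 128 of them the value was listed at 0, 54 lay above 0 and below 1, and 50 reached 10 or more. Without the mitochondrial genes the count was 94 of 249 (37.8%) and the median 0.277. A value listed at 0 does not show silence, since a count of 0 allows up to 3 reads and all 287 tRNA genes on the arms, which every cell uses, were also listed at 0.

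The sequences differed widely, as the plot by sequence shows. On the 5 Het sequences of chromosomes 2, 3 and X, 62 of 84 genes (73.8%) were at FPKM 1 or more and the median was 5.27, close to the arms in share and in level. On YHet the count was 2 of 14 with a median of 0.409. The unplaced contigs held the most genes and few that were detected: 30 of 151 at FPKM 1 or more, 92 at 0 and a median of 0. Of the mitochondrial genes 10 of 37 passed, 25 were at 0 and the median was 0. Of the reads on the 286 genes 3LHet alone carried 37.3%, and YHet carried 0.410%.

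**Figure D1:**
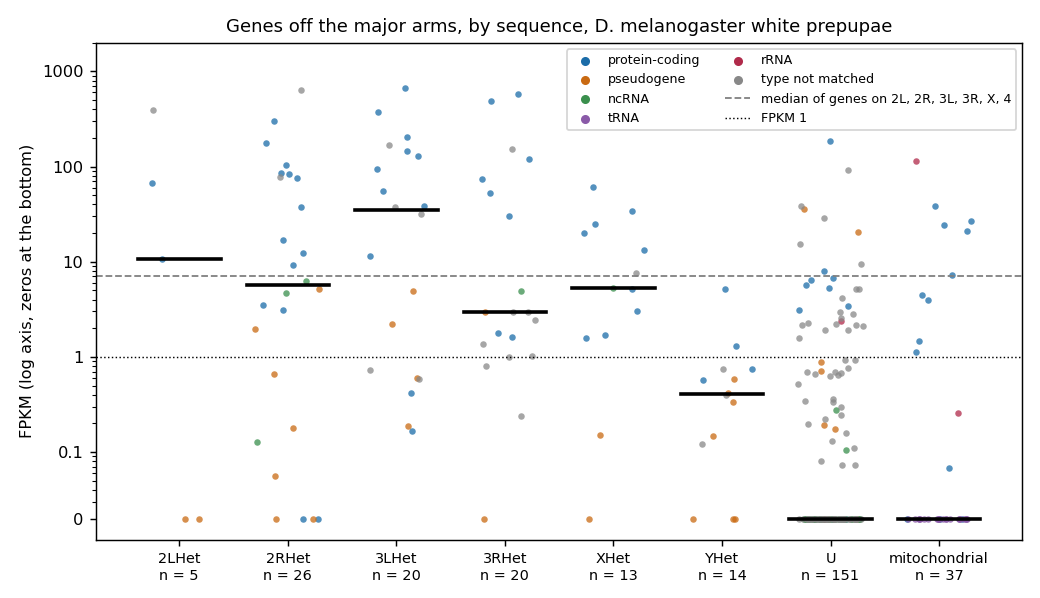
Each point is a gene in the D. melanogaster library, grouped by the sequence in its locus, with FPKM on a log axis, zeros at the bottom and colours for the gene type in the newer annotation. Black bars are medians, from 34.6 on 3LHet to 0 on U and the mitochondrial genome, the dashed line is the median of the arms at 7.10 and the dotted line FPKM 1.

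Among the 5 sequences, 3LHet had the highest median at 34.6, and 14 of its 20 genes reached FPKM 1. 2LHet followed at 10.6 with 3 of 5 genes. 2RHet stood at 5.72 with 18 of 26, XHet at 5.31 with 11 of 13, and 3RHet at 2.96 with 16 of 20. These orders rest on few genes. The order-statistic interval of the median ran from 0.731 to 130.5 on 3LHet and from 1.35 to 52.1 on 3RHet, so neighbours in this order cannot be separated by their spread. Chromosome 4, which is itself rich in repeats and HP1, is an arm in these files and had a median of 40.8, with 88 of 99 genes at FPKM 1 or more.

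The 286 genes also differed by type. By the newer annotation 71 were protein-coding, with a median of 10.6, and 59 of them (83.1%) were at FPKM 1 or more. Of 35 pseudogenes 7 passed, of 39 noncoding RNAs 4, and of 22 tRNAs, all mitochondrial, none. On the arms 382 of 641 noncoding RNAs (59.6%) passed. Of the 39 noncoding RNAs 31 are Su(Ste) copies on U, and on the 5 Het sequences other than YHet 4 of 5 passed. The newer annotation did not match 115 of the 286 identifiers, and 32 of these passed. On the 5 Het sequences other than YHet 40 of 44 protein-coding genes (90.9%) reached FPKM 1 and the median was 35.9, beside 79.1% of the 13207 protein-coding genes on the arms with a median of 8.33. Pseudogenes gave 5 of 17 there (29.4%) and 62 of 179 (34.6%) on the arms. A type was found for 66 of the 84 genes (78.6%), so the coding genes are those that kept their identifier in the newer annotation, and how the 18 others would move these counts was not tested. Of those 18, 13 passed.

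UQCR-11, a subunit of complex III of the respiratory chain, led the 286 with an FPKM of 670.2 (637.0 to 703.4), which placed it at the 98.4th percentile of all genes in the library. It lies on 3LHet from 606165 to 607415 (dm3 coordinates throughout). On 3RHet, CG41128 (1806528 to 1808475) stood at 579.4 and Tim17b (1813575 to 1824026), a subunit of the machinery that imports proteins across the inner mitochondrial membrane, at 485.2. CG40228 on 3LHet reached 376.5, eIF4B on 2RHet, a translation initiation factor, 303.6, and Dbp80 on 3LHet, a DEAD-box helicase of mRNA export, 203.9. BckdhB, which encodes a subunit of the branched-chain keto acid dehydrogenase, was at 185.7 and is the highest gene of U, and CG40191 on 2RHet was at 177.2. FBgn0043842 on 2RHet (634.8) and FBgn0058042 on 2LHet (392.2) complete the 10 highest and have no match in the gene tables used. The gene with the most reads was FBgn0040001 on 3LHet, also unmatched, with 18554 reads or 17.0% of those on the 286 genes at an FPKM of 169.5.

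On 3LHet vtd, the Rad21 subunit of the cohesin ring, stood at 130.5 (126.5 to 134.4), the 92.8th percentile of all genes. Parp1, the poly(ADP-ribose) polymerase, lies on 3RHet in a locus that runs from 1935205 to 2026815 and was at 52.1 (50.1 to 54.1). Set1, a histone H3 lysine 4 methyltransferase, was at 38.2 (37.0 to 39.4) on 3LHet, and Haspin, a histone H3 threonine 3 kinase, at 38.02 (35.8 to 40.2) on 2RHet, the 80.2nd percentile. The bounds of Set1 and Haspin overlap almost wholly, those of vtd and Parp1 stand apart from them and from each other. MED21, a subunit of the Mediator complex of transcription, was at 95.0. Its locus shares 257 bp with that of Set1 on the opposite strand and its bounds imply reads for a length 3.799 times its locus, so its value is uncertain.

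rolled (rl), the MAP kinase ERK of the fly, was at 103.4 (98.5 to 108.2) and lies on 2RHet from 198176 to 251950. Alg-2 on 3RHet was at 120.2, the transporter gene MFS17 at 84.8 and uex, of a family of magnesium transporters, at 76.5, both on 2RHet. su(f) on XHet encodes a protein that takes part in cleavage of the 3' end of mRNA precursors and was at 24.9 (23.5 to 26.3). Its locus overlaps those of CG17162 (61.4, the highest on XHet), CG17159 (1.58) and asRNA:CR43480 (5.31). No source used here says from which strand the reads came, so reads of these overlapping genes cannot be told apart. XHet also held ATbp at 3.02, and its lowest genes were rRNA pseudogenes, 18SrRNA-Psi:CR41602 at 0.151 and 2SrRNA-Psi:CR40677 at 0.

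**Figure D2:**
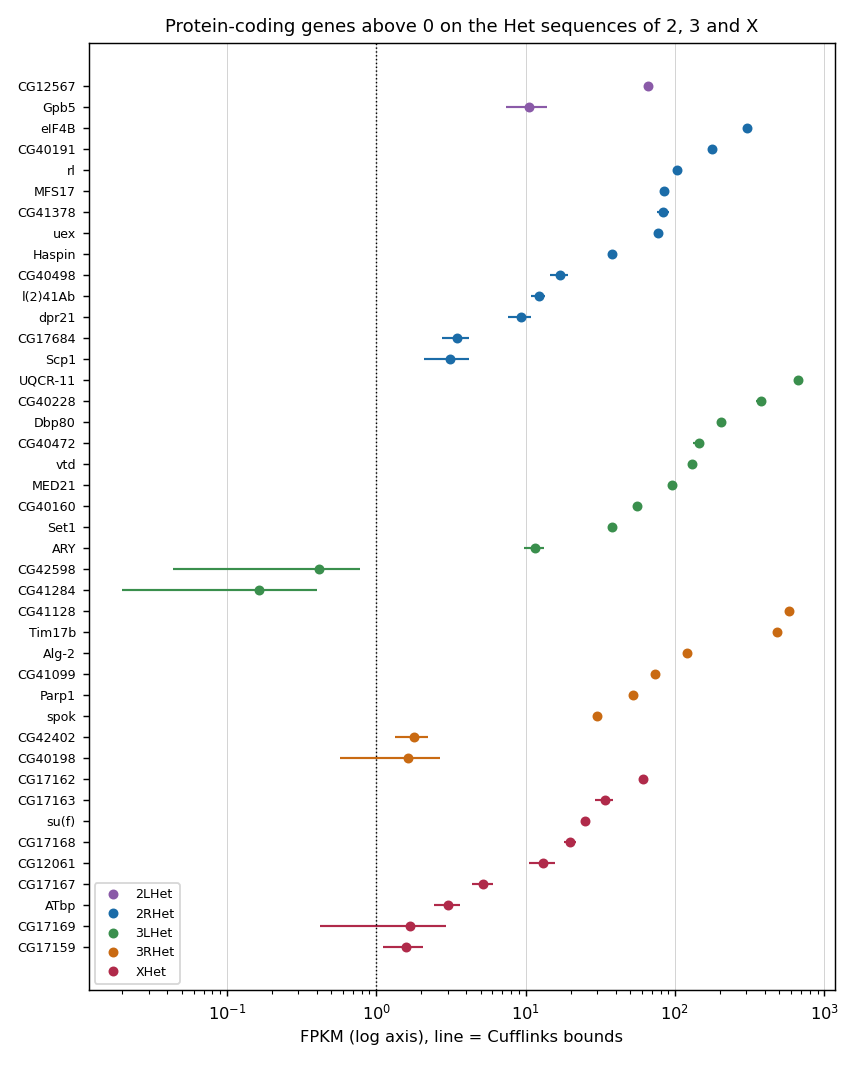
FPKM on a log axis for each protein-coding gene above 0 on 2LHet, 2RHet, 3LHet, 3RHet and XHet, with lines for the Cufflinks bounds, cut short near the left edge where a bound lies lower. The genes run from CG41284 at 0.165 to UQCR-11 at 670.2, and 40 lie at or right of the dotted line at FPKM 1.

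Hormone genes spanned a wide range. spok (spookier) encodes a cytochrome P450 needed to make the moulting hormone ecdysone in the larval prothoracic gland. It lies on 3RHet from 2127184 to 2158789 and stood at 30.3 (28.0 to 32.5). Its paralog spo on 3L, which acts in the embryo and the ovary, was at 0.482 on 15 reads, so that the FPKM of spok was 62.8 times as high (exact binomial interval on the reads 37.8 to 113, counting error only). Gpb5 on 2LHet and Gpa2 on U encode the partner subunits of a glycoprotein hormone and stood at 10.6 (7.37 to 13.8) and 6.74 (3.87 to 9.61). Their bounds overlap and the ratio of 1.57 had an interval of 0.921 to 2.76, which includes equal levels. Lgr1, their receptor on 3R, was at 7.68. The locus of Gpb5 ends at 167979, and its neighbour FBgn0058042, at 392.2, begins at 167980. Whether reads from this neighbour add to the 43 reads of Gpb5 was not tested. RYa, the precursor of the RYamide neuropeptides, lies on 2RHet and was listed at 0, as was CG41242 on the same sequence. Scp1 on 2RHet, a calcium-binding protein of muscle, was at 3.12, and dpr21 there, an immunoglobulin domain protein of neurons, at 9.31.

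The lowest named genes of each sequence were pseudogenes or genes with very few reads. On 2LHet CR41519 and CR42530 were listed at 0, and on 2RHet CR40461 and CR41501 joined RYa and CG41242. CR40182 was the only gene of 3RHet at 0. None of the 20 genes of 3LHet was at 0, and the lowest was CG41284 at 0.165 on 2 reads. Some low loci passed on almost no reads: 4 genes at FPKM 1 or more had 3 reads or fewer, on loci of at most 244 bp. The extreme was FBgn0261337 on U, at 38.2 (0 to 82.4) from 3 reads on 120 bp. Just above the threshold lay Ppr-Y at 1.31, mt:ND4 at 1.12 and FBgn0261336 at 1.02, and just below it FBgn0040034 at 0.988.

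A list of genes known from the literature to lie near the centromeres held 36 names. Of these 26 were matched by symbol, 13 off the arms and 13 on the arms of this assembly. The other names may stand among the identifiers without a symbol. All 13 off the arms reached FPKM 1, from 9.31 (dpr21) to 303.6 (eIF4B), with a median of 76.5. Of the 13 on the arms 12 passed, with a median of 35.0. Of protein-coding genes on the arms in general 79.1% passed. The 13 listed genes on the arms included light (lt), a vesicle trafficking gene, at 64.4 and concertina (cta), a G protein alpha subunit, at 35.0. Nipped-B, a loader of cohesin, was at 65.4 and AGO3, of the piRNA pathway, at 7.33. The lowest of the 13 was the receptor gene Ir41a at 0.774. The ranges of both groups overlap. In the newer annotation eIF4B is placed on 3L and not on chromosome 2, so the sequence name of a locus in this assembly is not always its chromosome.

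Long loci were common among these genes. On the 5 Het sequences other than YHet 27 of 84 loci (32.1%) spanned more than 20 kb, against 959 (6.31%) on the arms. The longest was CG17684 on 2RHet, which spans 396068 bp and stood at 3.48. In 135295 bp Dbp80 reached 203.9, and its annotation is 98.3% intron. Of the 27 long loci 23 (85.2%) reached FPKM 1 and the median was 16.9, beside 77.6% and a median of 4.503 for the long loci of the arms. Loci of 5 to 20 kb had medians of 31.5 over 16 genes on the Het sequences and 6.50 on the arms. Below 5 kb the order was the reverse, 2.996 over 41 genes against 7.74. On the arms the median thus was lower the longer the locus, and on the Het sequences the shortest class was the lowest. The class of short loci holds most of the pseudogenes. Among protein-coding genes alone the Het medians were above those of the arms in all 3 classes: 19.9 over 17 genes against 9.64 below 5 kb, 38.2 over 11 genes against 6.52 from 5 to 20 kb, and 45.1 over 16 genes against 4.48 above 20 kb. The order below 5 kb therefore turned round when the other types were left out. All 16 long protein-coding Het loci passed FPKM 1, while the 11 long Het loci with no type in the newer annotation had 7 at FPKM 1 or more and a median of 1.35.

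**Figure D3:**
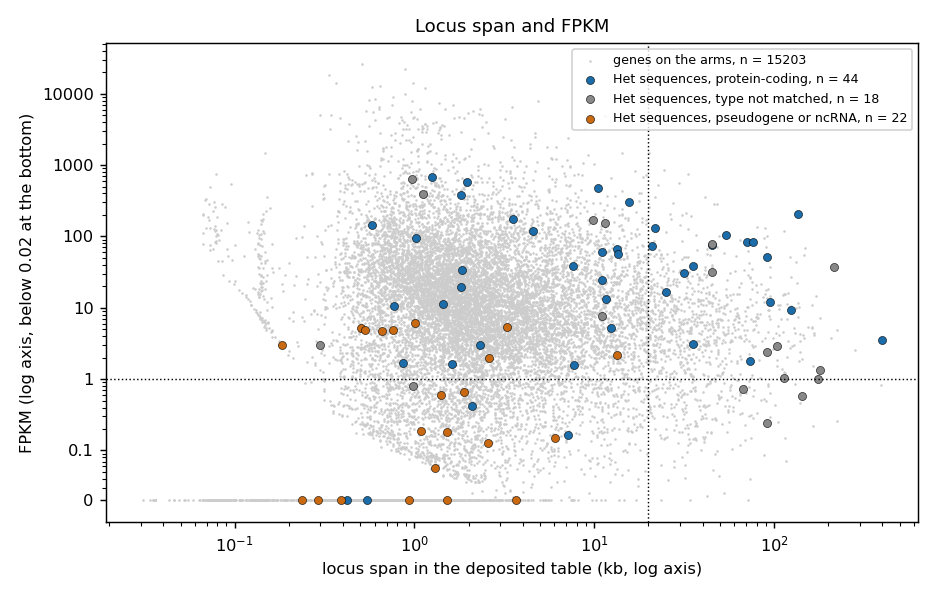
Span of each locus in kb against FPKM, both on log axes with FPKM zeros at the bottom; grey points are the 15203 genes on the arms and coloured points the 84 genes of the 5 Het sequences other than YHet. Right of the dotted line at 20 kb the Het genes had a median of 16.9 and the arms 4.503.

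Reads were found on Y-linked genes, most of which stood at low levels. Of 12 single-copy Y genes on a list of known ones, 6 were measured: kl-2, ORY, Ppr-Y and Pp1-Y2 on YHet, ARY on 3LHet and Pp1-Y1 on U, the last 2 placed on the Y chromosome only by the newer annotation. The others (kl-3, kl-5, CCY, WDY, PRY and FDY) were not matched by symbol. They may stand among the identifiers that the gene tables do not name, and no value is assigned to them here. All 6 measured genes had reads, 4 of them (66.7%) reached FPKM 1, a share below the 74.5% of all genes, and the median was 3.26. Together they had 492 reads (exact Poisson interval 449 to 537). Males alone carry a Y chromosome, so reads on these genes stand for male RNA in the pool. How many of the animals were male, how much of each was testis and how much RNA a cell held cannot be told apart in a single library of whole animals.

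The listed Y genes spanned a range from 0.575 to 11.5. ARY, an aldehyde reductase, was highest at 11.5 (9.71 to 13.2) on 168 reads. Pp1-Y1 and Pp1-Y2, both relatives of the catalytic subunit of protein phosphatase 1, stood at 6.46 (4.36 to 8.55) on 38 reads and 5.20 (4.04 to 6.35) on 81 reads. The bounds of these phosphatase genes overlap and the ratio of Pp1-Y1 to Pp1-Y2 was 1.24 (exact binomial interval 0.822 to 1.85), while ARY was 2.21 times Pp1-Y2 (1.68 to 2.91). Their relatives on the arms were higher: Pp1-87B stood at 245.5, flw at 35.4, Pp1alpha-96A at 26.1 and Pp1-13C at 12.03.

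Ppr-Y was at 1.31 (0.826 to 1.80) on 29 reads, in a locus of 49505 bp that overlaps the pseudogene CR40441. The lowest were kl-2, a dynein heavy chain of the sperm tail, at 0.752 (0.633 to 0.872) and ORY at 0.575 (0.304 to 0.845). The value of kl-2 rests on 158 reads, spread over a transcript of great length, and that of ORY on 18. The bounds of kl-2 and ORY overlap, and the ratio of 1.31 had an interval of 0.802 to 2.27. The Cufflinks bounds of Ppr-Y and kl-2 overlap as well, and their ratio was 1.75 (1.13 to 2.61).

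The remaining 10 loci of YHet all lay below FPKM 1 and had 162 reads together (138 to 189). Most of these reads came from FBgn0001315 at 0.739 with 85 reads and FBgn0001314 at 0.398 with 53 reads, in loci of 33103 and 31550 bp that the gene tables did not match. The 7 pseudogenes of YHet ranged from 0 (CR40441, CR41504 and CR42201) through CR41508 (0.147), CR41506 (0.334) and CR41509 (0.421) to CR41507 at 0.584. FBgn0085787 was at 0.121 on 2 reads. Over the 6 listed genes and these 10 loci 4 of 16 passed, and the median was 0.498. The newer annotation places 41 of the 286 genes on the Y, 5 of them at FPKM 1 or more, and 30 of the 41 lie off YHet in this assembly. Of those 30 genes, most of them Su(Ste) repeats, 3 were at FPKM 1 or more.

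**Figure D4:**
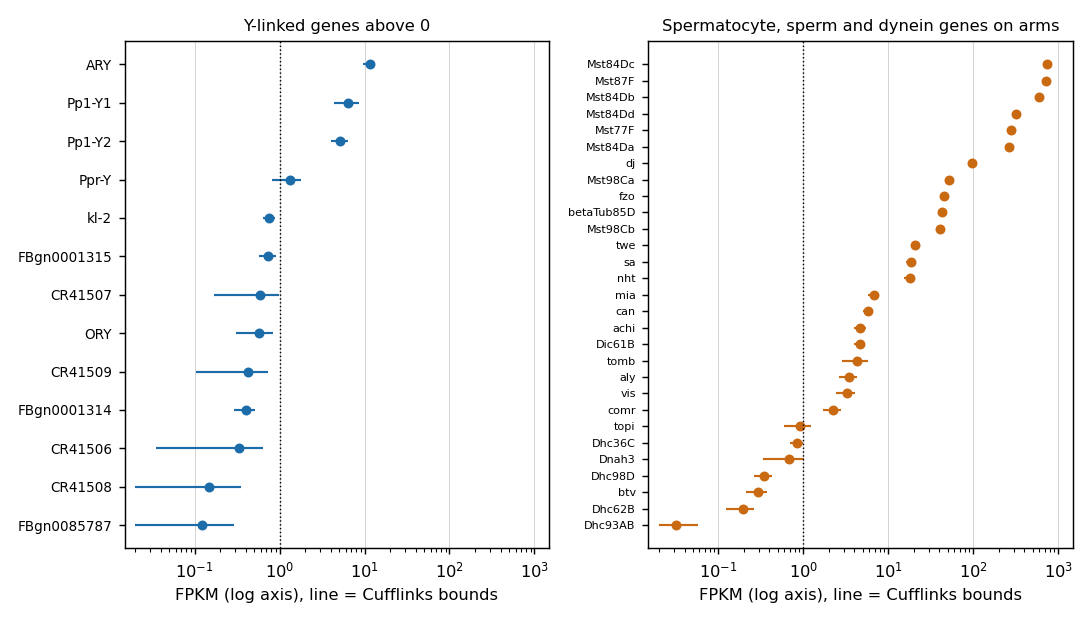
FPKM on a log axis with lines for the Cufflinks bounds, cut short near the left edge where a bound lies lower; the left panel shows the 6 listed Y genes and the other loci of YHet that were above 0 and the right panel genes of spermatocytes and sperm with axonemal dynein heavy chains on the arms. ARY at 11.5 is the highest gene of the left panel, which leaves out the repeated genes and those of U other than Pp1-Y1, and lies below the Mst84D genes and Mst87F on the arms, and kl-2 at 0.752 lies near Dhc36C at 0.840.

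Other genes of the male germline were also measured. Of 26 spermatocyte and sperm genes on a list 23 were matched by symbol, all on the arms. FPKM 1 was reached by 22 of them (95.7%), beside 79.1% of protein-coding genes on the arms, and the median was 20.6, beside 8.33. The highest were genes of the sperm tail and sperm chromatin, among them Mst84Dc at 743.6, Mst87F at 721.4 and Mst77F at 280.2. Other Mst genes went down to Mst98Cb at 40.5, below fzo at 45.4 and betaTub85D at 42.4. Of the genes that switch on the spermatocyte programme, sa stood at 18.8, nht at 17.9, mia at 6.71, can at 5.80, aly at 3.44, comr at 2.25 and topi, the only one of the list below 1, at 0.914. The RNAs of male dosage compensation, roX1 and roX2, stood at 138.3 and 49.3. All 7 genes of that list passed, down to msl-2 at 2.79 and mof at 2.15, beside 74.5% of all genes. Of the Y genes ARY, Pp1-Y1, Pp1-Y2 and Ppr-Y lay within the range of the spermatocyte and sperm list, and kl-2 and ORY lay below it. The 6 axonemal dynein heavy chain genes on the arms ranged from 0.0319 (Dhc93AB) to 0.840 (Dhc36C), none reaching 1, and kl-2 at 0.752 fell within that range. Dhc36C over kl-2 gave a ratio of 1.12 (0.882 to 1.41), which includes equal levels.

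The repeated Y genes stood far apart from each other. Su(Ste) repeats give rise to small RNAs that silence the X-linked Stellate genes in the testis. Of the 31 Su(Ste) copies, all on U, 30 were listed at 0 and Su(Ste):CR42418 stood at 0.277 on 5 reads. The 12 Stellate copies on X and SteXh:CG42398 on U were at 0 as well. These copies are nearly identical, and a 0 in every copy does not separate a lack of RNA from reads that could not be assigned to a copy. Mst77Y-16Psi, a copy of the sperm chromatin gene Mst77F that lies on U from 8029209 to 8030316, stood at 36.2 (33.0 to 39.4) on 515 reads. Mst77F itself was 7.74 times higher (7.06 to 8.50). Since the copies resemble each other closely, how reads were split between them is uncertain. CR43176, which the newer annotation places on the Y, was at 20.8 (11.0 to 30.5) from 18 reads on a locus of 237 bp.

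Beyond these, U held few detected genes. Protein-coding genes passed in 8 of 10 cases, with BckdhB far above the rest. CG41561 followed at 8.08, Gpa2 at 6.74, Pp1-Y1 at 6.46, CG41520 at 5.72, and klhl10, an adaptor of a ubiquitin ligase needed for spermatids to shed their cytoplasm, at 5.33 (4.59 to 6.07). The bounds of CG41561 imply reads for a length well beyond its locus, so its value is uncertain. CG40813 and CG41562, of the same locus length of 715 bp, were at 3.45 and 3.12 with overlapping bounds. CG40635 and SteXh:CG42398 were at 0. The 94 genes of U that the annotation did not match included 19 at FPKM 1 or more, led by FBgn0058196 at 91.6 on 1153 reads. Nuclear rRNA genes and their pseudogenes were nearly empty, with 1 of 7 at FPKM 1 or more (18SrRNA:CR41548 at 2.37). Without the Su(Ste) copies the count on U was 30 of 120 and the median stayed at 0.

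Mitochondrial genes ranged from 0 to over FPKM 100. The large ribosomal RNA mt:lrRNA was highest at 114.9 (110.5 to 119.4). Its bounds imply reads for a length well beyond its locus, so this value is uncertain. Of the genes for complex IV, mt:CoIII stood at 38.7 (34.4 to 43.1), mt:CoI at 24.5 (22.2 to 26.8) and mt:CoII at 7.34 (5.34 to 9.33). The complex III gene mt:Cyt-b was at 26.7 (23.9 to 29.6). Complex I genes ran from mt:ND3 at 21.3 through mt:ND1 at 4.48, mt:ND5 at 1.48 and mt:ND4 at 1.12 to mt:ND2 at 0.0687, and mt:ND6 and mt:ND4L were at 0. The ATP synthase gene mt:ATPase6 was at 3.94 and mt:ATPase8 at 0. The small ribosomal RNA mt:srRNA was at 0.259 on 3 reads, and all 22 tRNAs were at 0.

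Levels within the mitochondrial genome were uneven. mt:CoI was 3.34 times mt:CoII (exact binomial interval 2.51 to 4.51) and mt:CoIII 1.45 times mt:Cyt-b (1.24 to 1.69). The ratio of mt:Cyt-b to mt:CoI was 1.09 (0.949 to 1.26), which includes equal levels. By strand, 6 of 9 genes other than tRNAs on the plus strand and 4 of 6 on the minus strand were at FPKM 1 or more. UQCR-11, the nuclear subunit of complex III on 3LHet, stood 25.1 times above mt:Cyt-b (22.3 to 28.2), its mitochondrial partner in the same complex. Neighbouring mitochondrial genes overlap by up to 10 bp, and the part of RNA selection in these levels was not tested, since the selection is not stated in the sources used.

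**Figure D5:**
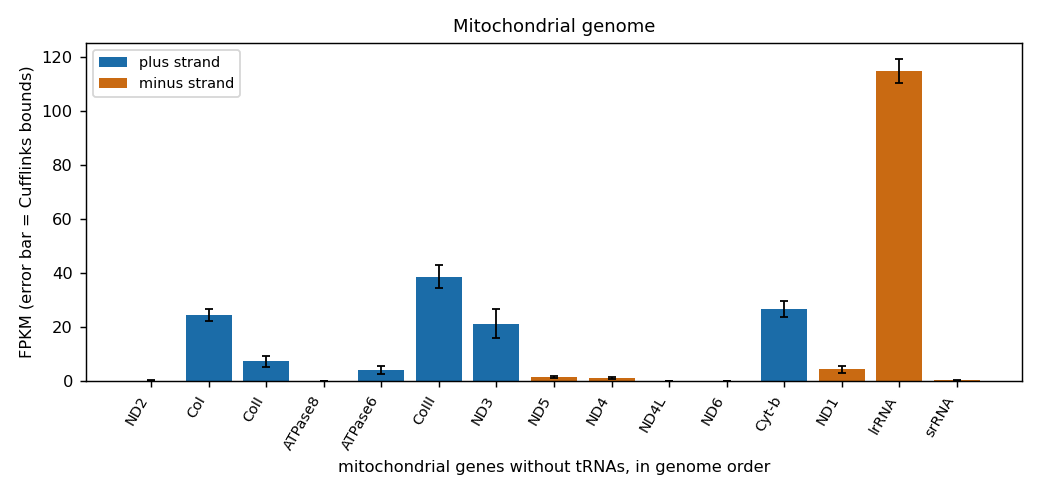
FPKM on a linear axis from 0 for the mitochondrial genes other than tRNAs in genome order, coloured by strand, with error bars for the Cufflinks bounds. mt:lrRNA at 114.9 stands above mt:CoIII at 38.7, and ATPase8, ND4L and ND6 are at 0.

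The genes of proteins that package or bind heterochromatin were measured in the same library. Of 26 such genes 24 (92.3%) reached FPKM 1, beside 79.1% of protein-coding genes on the arms, and the median of 5.73 was below the 8.33 of those genes. The gene that encodes HP1a was highest at 234.1, and the germline gene rhi at 0.648 and the centromere histone gene cid at 0.704 were the genes below 1.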

How the data were processed

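RNA was taken from whole white prepupae, and 1 library per species was sequenced. The deposited tables hold the output of Cufflinks, run by the authors on TopHat alignments of trimmed reads from 1 end of each fragment: an FPKM per gene, its bounds and a status. Bowtie, SAMtools and dm3 also stand in the submitters' processing notes, without versions.

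From the deposited D. melanogaster table, 15494 rows were summed to 15492 genes. All 286 genes chosen had status OK, and 91 other genes had another status. Reads behind a value were solved from the upper bound, taken as 2 standard errors above FPKM. The planned formula used both bounds, which gives the same number except where the lower bound was set to 0. In this library the reads came out whole within 0.05 for 69.4% of 8392 genes with 1 to 299 reads, and for 84.6% of 117 such genes off the arms. No count test was run. The median distance from FPKM to a bound was 12.4% of FPKM for all genes at FPKM 1 or more and 18.5% for those off the arms.

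Symbols matched 14872 identifiers and 171 of the 286, so the exclusion by symbol could be applied only to those. Gene type, strand, exons and newer placement came from the BDGP6 (dm6) annotation by identifier; its coordinates were not used. Intervals are at 95% and cover counting error only: exact Poisson for sums of reads, exact binomial for ratios and order statistics for medians. The pairs in ratios were chosen after their values were seen. The genes and lists were chosen with earlier results of these data known. Named were all Y-linked genes, list genes off the arms, the 10 highest, the highest and lowest named gene of each sequence, and overlapping neighbours. Other genes named (such as CG41561, klhl10, CG40813 and unmatched identifiers) were chosen after their values were seen. Alternatives were FPKM minimums of 0.1 and 5, 4 reads, status OK, no overlapping loci, protein-coding genes, the largest row, the symbol exclusion, genes above 0, genes still annotated and, added after seeing the data, no mitochondrial genes. The read arithmetic was tested on simulated data whose bounds were made with the same formula. That test cannot show whether the Cufflinks bounds follow the formula. For 8 of the 158 chosen genes above 0, MED21, mt:lrRNA and CG41561 among them, the reads implied a length well beyond the locus. The formula may not hold for these 8. The tools were matplotlib 3.10.9, scipy 1.17.1, pandas 2.3.3 and numpy 2.4.6 in Python 3.11.15.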

Additional observations from a re-analysis of the deposited data

Results flagged for a closer look

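The D. yakuba library, which no comparison above uses, also held reads on its Y heterochromatin sequence. Both genes listed on Yh were above the 3 reads that a count of 0 allows: FBgn0237143 stood at an FPKM of 7.71 (6.74 to 8.67) on 256 reads and FBgn0237154 at 17.4 (14.3 to 20.5) on 126 reads. Their names are not matched here, and the sources used here do not state the sex of these animals either.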

How the results depend on the processing

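No paired analysis was possible because each species has 1 library, and for the same reason no replicate could be left out. Of 71 values recomputed under an alternative, 52 kept close to the value reported and 19 moved. The limit for keeping close was loose, and for the median it was the whole interval of 0 to 0.524. The 52 include the count of all 286 genes at an FPKM minimum of 0.1, which rose from 104 (36.4%) to 153 (53.5%). With at least 4 reads that count was 130 (45.5%). With an FPKM minimum of 5 the count of all 286 genes fell to 66, on 3RHet to 7, on YHet to 1, on U to 15 and in the mitochondrial genome to 6. With a minimum of 0.1 YHet rose to 11, U to 56 and the 16 Y-linked genes to 13. Asking for 4 reads in place of an FPKM minimum gave 9 on YHet and 11 Y-linked genes. Without overlapping loci XHet gave 6 of 8, YHet 1 of 12 and the mitochondrial genome 3 of 21. With protein-coding genes alone the count was 59 of 71 in all and the median FPKM 10.6. By sequence it was 9 of 11 on 3LHet, 8 of 8 on 3RHet and 8 of 10 on U. Counts were called moved by the number of genes alone, and these shares rose, on U from 19.9% to 80.0%. Over genes above 0 the median was 2.96. Status OK and the largest row of a gene removed nothing and test nothing. Counts of Y-linked genes thus depend on the threshold, since most of them lie near FPKM 1 or below it.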

Other observations

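Heterochromatic sequences of the D. yakuba table were described in the same way, though genes were not matched between species. Of 43 genes on its 4 h sequences 17 were at FPKM 1 or more, 20 were at 0 and the median was 0.104, beside 71.9% of 15342 genes in that library at FPKM 1 or more. By sequence the counts were 8 of 12 on Xh, 7 of 25 on 2h, 0 of 4 on 3h and 2 of 2 on Yh. The highest was FBgn0239892 on 2h at 3482 on 2870 reads. These shares differed from the D. melanogaster library, whose 6 Het sequences held 64 of 98 genes (65.3%) at FPKM 1 or more. The median there was 3.30.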
